A study of Homo sapiens with 8 samples.

Results

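The genes described here are 10 genes of the smooth-muscle-type contractile apparatus and its transcriptional control: TAGLN, ACTA2, CNN1, CNN2, MYL9, TPM1, TPM2, CALD1, SRF and MRTFA. They were taken by symbol from a table of 54174 symbols, of which 16590 had a value in at least 1 library. The list was chosen by the high TAGLN values of the knockout libraries against the controls, so all knockout-against-control values of the 10 genes are given as a description and support no claim. All 10 genes had a value in all 8 libraries, and 9 passed the filter on low values, a mean log2 value of at least 1, that 9016 genes passed in all. TAGLN passed it only through the knockout group, with a mean of 0.12 in the controls and 2.71 in the knockouts. ACTA2 lay just inside that filter with a mean of 1.05, and CNN1 lay outside it with a mean of -2.71.

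The cells were 143B, an established human osteosarcoma line. In 4 libraries they carried a plasmid labelled NELL1KO for 48 h and the labelled genotype was NELL1 knockout. In 4 control libraries they carried a vector plasmid for the same time. Both groups were transiently transfected cultures described as biological replicates, and the labels mention no clone and no selection of transfected cells.

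Smooth muscle cells and activated mesenchymal cells build contractile actin bundles from a common set of proteins: smooth muscle actin, the tropomyosins that coat the filament, caldesmon and the calponins that bind along it, transgelin that cross-links it, and the regulatory light chain of myosin. Many of these genes are driven by serum response factor (SRF), which binds a short sequence called the CArG box. SRF works with cofactors of the MRTF family, which are held by unpolymerised actin and move to the nucleus when actin polymerises, or with ternary complex factors, which respond to ERK signalling and act on immediate early genes.

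The CArG box was searched for in the 250 bases before each start site in the RefSeq promoter table (GRCh38.p14), because it is the sequence through which SRF acts on these genes. The motif is 10 bases long and self-complementary in pattern, so 1 search covers both strands. Entries were found for 8 of the 10 genes, with 16 start sites between them; TAGLN and MYL9 had none. A CArG box was present at 2 of these 16 start sites, those of SRF and CNN2, and at 1.16% of the 35116 start sites of all genes. A CArG-like sequence, with 1 G or C inside the A/T core, was present at 2 of the 16, in ACTA2 and CALD1, and at 5.96% of all start sites. The windows with a CArG box, and the ACTA2 window with 2 CArG-like sequences, are printed with these matches in capitals. The SRF window is chr6:43171139-43171268 on the plus strand and ends at the base before the start. The CNN2 window is chr19:1026478-1026577 on the plus strand and ends 31 bases before the start. The ACTA2 window is chr10:88952774-88952903 on the minus strand, ends at the base before the start and belongs to the second of 2 listed start sites.
SRF: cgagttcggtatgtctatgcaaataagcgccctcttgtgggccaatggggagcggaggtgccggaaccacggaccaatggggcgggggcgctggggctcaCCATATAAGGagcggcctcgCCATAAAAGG
CNN2: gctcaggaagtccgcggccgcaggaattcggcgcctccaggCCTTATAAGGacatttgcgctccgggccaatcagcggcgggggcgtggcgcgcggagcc
ACTA2: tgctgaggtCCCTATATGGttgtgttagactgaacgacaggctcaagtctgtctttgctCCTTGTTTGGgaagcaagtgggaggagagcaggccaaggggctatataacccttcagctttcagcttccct
These matches are letters in a window and do not show that SRF bound there in these cells. SRF itself holds 2 CArG boxes, at 30 to 21 and at 10 to 1 bases before its start, and CNN2 holds 1 at 89 to 80 bases before its start.

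Values are the deposited log2 values, quantile normalized between libraries. The unit under the logarithm is not stated, so levels are compared mainly between libraries for a gene. Percentiles and summed levels, which set genes beside each other, are given as a description only. A blank cell adds nothing to a sum. The number of genes with a value per library ran from 14911 to 15171. The control mean was 15047 ± 110 and the knockout mean 15101 ± 39.8 (SD, n = 4 each). No difference between these means was shown (exact two-sided permutation test, p = 0.429, smallest possible p = 0.0286). NELL1 itself did not check the labels: it ran from -6.97 to -4.53 in the controls and from -6.96 to -4.82 in 3 knockout libraries, and its cell was blank in the remaining 1. The knockout libraries stood apart from each other in pairs. Over the tested genes the SD of the difference was 0.12 between knockouts 1 and 2 and 0.13 between knockouts 3 and 4, but 0.46 to 0.50 between these pairs, more than the 0.36 to 0.45 between a knockout and a control library. Without counts it could not be tested whether the libraries of a pair differ by more than sampling noise. Results are therefore also given within replicates 1-2 and within replicates 3-4, which the labels do not name as batches, or with each knockout pair averaged to 1 library.

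Transgelin, encoded by TAGLN (chr11:117199294-117207465, plus strand), had the widest separation between the groups of these 10 genes. Its log2 value was -0.59, -0.26, 0.95 and 0.37 in controls 1 to 4 and 3.52, 3.32, 2.00 and 2.00 in knockouts 1 to 4. Every knockout library was above every control, and knockouts 1 and 2 were well above knockouts 3 and 4. The means were 0.12 ± 0.68 and 2.71 ± 0.82 (SD, n = 4 each), a difference of 2.59 ± 0.45 (SE) or 6.02-fold. Within replicates 1-2 the difference was 3.84 and within replicates 3-4 it was 1.34; controls 1 and 2 were also the lowest of the controls. In RNA from whole cultures, a larger share of cells with TAGLN and more TAGLN RNA per cell cannot be told apart. In rank, TAGLN moved from percentile 26.2 of the genes with a value in its lowest library to percentile 76.5 in its highest.

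The neighbourhood of TAGLN was examined because the strand used in counting is not stated. The span of PCSK7, a proprotein convertase gene on the minus strand, overlaps that of TAGLN by 3129 bases at their 3′ ends. PCSK7 had means of 1.24 ± 0.17 (control) and 1.21 ± 0.17 (knockout; SD, n = 4 each) and differed by -0.03 ± 0.11 on the log2 scale (SE; limma adjusted p = 0.879). The nearest measured gene on the other side, SIDT2, was 0.43 ± 0.08 and 0.28 ± 0.12 (SD, n = 4 each). Beyond PCSK7, RNF214 differed by -0.09 ± 0.08 (SE; limma adjusted p = 0.509). The knockout mean of each of these 3 neighbours lay slightly below its control mean, while that of TAGLN lay far above. A non-coding RNA gene, LOC100652768, also overlaps the span of TAGLN, by 2621 bases, and had no value, so it could not be compared.

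The tropomyosins wind along the actin filament and control access to it. TPM1 was 4.32, 4.32, 4.50 and 4.48 in controls 1 to 4 and 4.93, 4.77, 5.04 and 5.01 in knockouts 1 to 4. The groups did not overlap, and the difference of 0.53 ± 0.08 (SE), or 1.45-fold, was nearly the same within replicates 1-2 (0.53) and within replicates 3-4 (0.54). TPM2 was 5.74, 5.73, 6.21 and 5.98 in the controls and 6.19, 6.19, 6.21 and 6.30 in the knockouts. Control 3 reached the knockout level, so the groups overlapped, and the difference of 0.31 ± 0.11 (SE) was 0.46 within replicates 1-2 and 0.16 within replicates 3-4. Both genes encode several splice forms, of which the table gives only a sum per gene.

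The calponins bind actin and slow its myosin motor, and CNN1 is the form typical of differentiated smooth muscle. CNN1 was weakly expressed in controls and knockouts alike, at percentiles 14.1 to 19.2, with means of -2.71 ± 0.55 and -2.71 ± 0.33 (SD, n = 4 each) and a difference of 0.0038. CNN2, the more widely expressed form, was 5.44, 5.49, 5.31 and 5.49 in controls 1 to 4 and 5.69, 5.61, 5.59 and 5.62 in knockouts 1 to 4. All knockout values were above all control values, but the step was small, 0.20 ± 0.07 (SE) or 1.15-fold, and alike within replicates 1-2 (0.19) and 3-4 (0.21). CNN2 and TAGLN, which share a calponin-type actin-binding fold, thus had non-overlapping groups with differences of very unequal size.

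MYL9, the regulatory light chain whose phosphorylation switches on non-muscle and smooth muscle myosin, was 2.36, 2.11, 1.98 and 2.18 in controls 1 to 4 and 3.05, 2.92, 2.17 and 2.57 in knockouts 1 to 4. Knockout 3 fell inside the control range and the other 3 knockouts were above it. The difference was 0.52 ± 0.18 (SE) over all libraries, 0.75 within replicates 1-2 and 0.29 within replicates 3-4. CALD1, caldesmon, was 3.13, 3.10, 3.33 and 3.23 in the controls and 3.55, 3.56, 3.21 and 3.37 in the knockouts. Its difference of 0.23 ± 0.10 (SE) was 0.44 within replicates 1-2 and 0.0058 within replicates 3-4.

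ACTA2, smooth muscle alpha-actin and the usual marker of myofibroblasts, did not follow TAGLN. It was 1.05, 0.86, 1.53 and 1.10 in controls 1 to 4 and 0.07, 0.07, 1.96 and 1.77 in knockouts 1 to 4. Knockouts 1 and 2 lay below every control and knockouts 3 and 4 above every control, so the overall difference of -0.17 ± 0.45 (SE) describes neither pair: it was -0.89 within replicates 1-2 and 0.55 within replicates 3-4. The knockout pair with the higher TAGLN was the pair with the lower ACTA2. The actin genes encode nearly identical proteins, and FAS overlaps the span of ACTA2 by 27288 bases on the other strand, so some reads could have been split between them by a counting step that is not described. FAS was at -1.31 ± 0.32 and -1.32 ± 0.28 (SD, n = 4 each).

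The regulators showed no common difference between the groups. SRF was 2.87, 2.91, 3.06 and 2.89 in controls 1 to 4 and 3.14, 3.02, 2.76 and 2.73 in knockouts 1 to 4. Knockouts 3 and 4 were below all controls and knockout 1 above them, giving an overall difference of -0.02 ± 0.10 (SE), 0.19 within replicates 1-2 and -0.23 within replicates 3-4. MRTFA, the cofactor that is sequestered by actin monomers, was 1.61, 1.71, 1.57 and 1.50 in the controls and 1.20, 1.17, 1.59 and 1.73 in the knockouts. Here knockouts 1 and 2 were below all controls, and the difference was -0.18 ± 0.13 (SE) over all libraries, -0.47 within replicates 1-2 and 0.12 within replicates 3-4. Transcript level says nothing of where MRTFA protein sat in the cell, which is the regulated step.

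**Figure D1:**
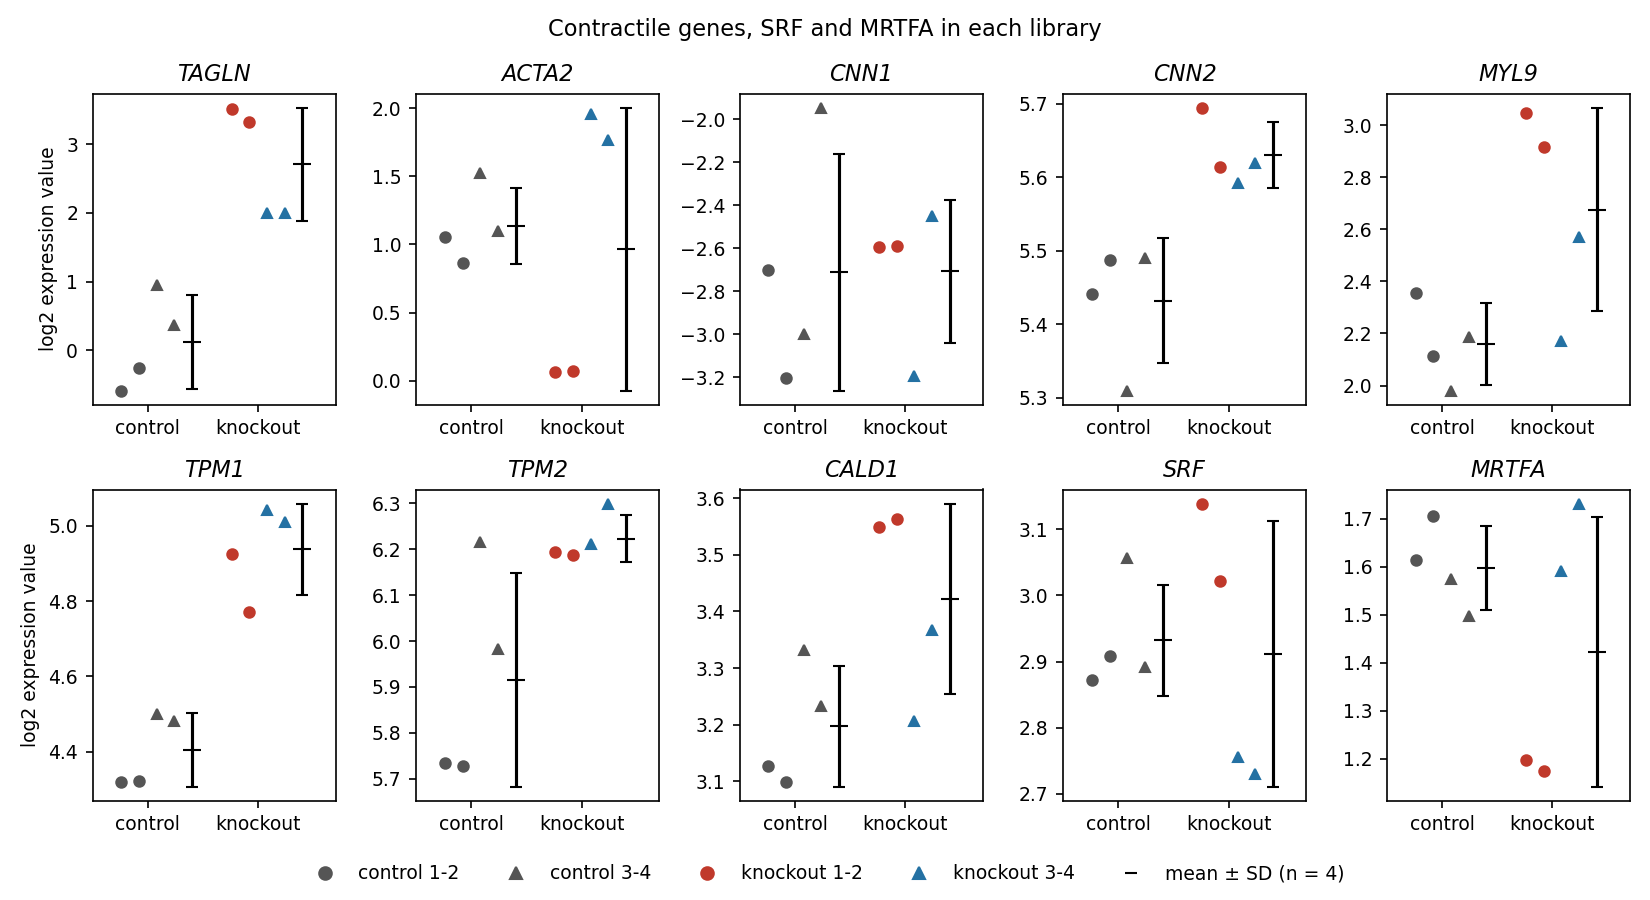
Deposited log2 expression value (vertical axis, a separate scale for each gene) in the 4 control and 4 knockout libraries for the 10 genes; circles are replicates 1-2, triangles replicates 3-4, and the bar is the mean ± SD of the 4 libraries. The groups do not overlap for TAGLN, TPM1 and CNN2, and ACTA2 has knockouts 1 and 2 at 0.07 below all controls and knockouts 3 and 4 at 1.77 to 1.96 above them.

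In the limma fit across all genes, 2 of the 9 tested genes, TAGLN and TPM1, were called (Benjamini-Hochberg adjusted p under 0.05), both higher in the knockouts, against 13.1% of all 9016 tested genes. Values of the groups did not overlap for 3 of the 9, with the knockouts higher in each, against 22.9% of all tested genes in either direction and 12.5% with the knockouts higher. TAGLN entered this fit only because it was high in the knockouts. Since the genes were also proposed from this contrast, nothing is read from these counts. The median difference of the 9 was 0.23, beside 0.01 for all tested genes. With the replicate number as a block MYL9 was also called, against 10.2% of all genes. With each knockout pair averaged none of the 9 was called in the limma fit, against 1.20% of all genes, although 3 had an unadjusted p under 0.05, as did 20.6% of all genes.

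The size and sign of the difference varied between replicates 1-2 and replicates 3-4, in which both the knockout and the control libraries differ. For TAGLN, knockouts 1-2 lay 1.42 above knockouts 3-4 and controls 1-2 lay 1.08 below controls 3-4. For TPM2 the gap was almost all in the controls, with 1-2 minus 3-4 at -0.37 there and -0.06 in the knockouts. The difference was positive within both sets of replicates for TAGLN, TPM1, TPM2, CNN2, MYL9 and CALD1, and of opposite sign for ACTA2, CNN1, SRF and MRTFA. These sets were seen in the data and the difference between them was not tested.

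**Figure D2:**
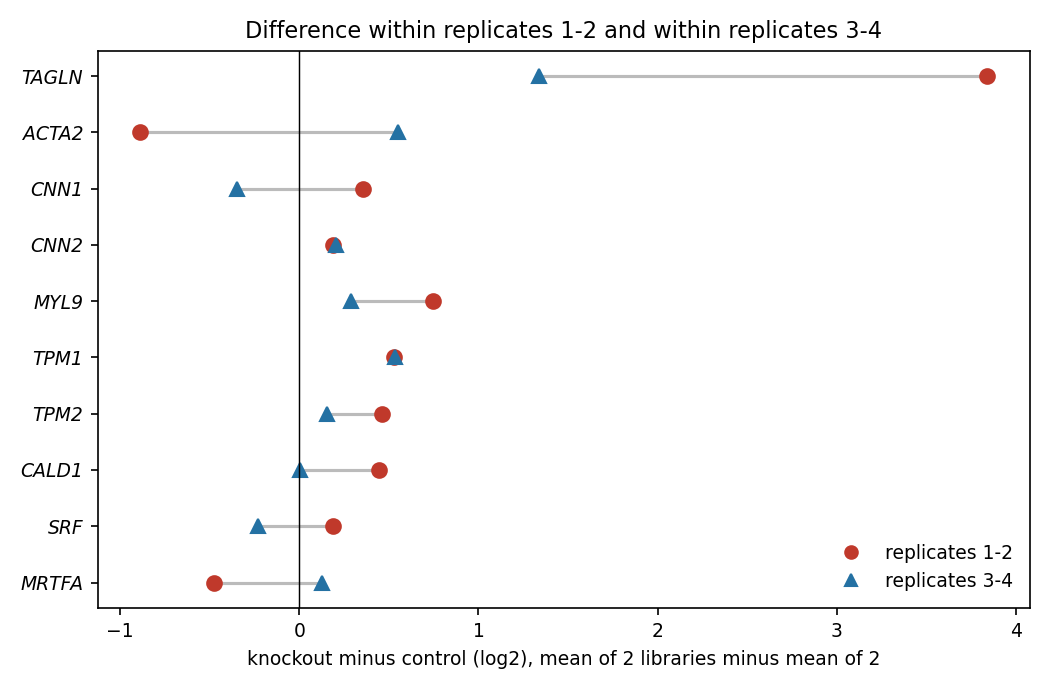
Knockout minus control on the log2 scale (horizontal axis) for the 10 genes, each from the mean of 2 knockout and 2 control libraries; circles are replicates 1-2 and triangles replicates 3-4. The sets coincide for TPM1 (0.53 and 0.54) and CNN2 (0.19 and 0.21), lie far apart for TAGLN (3.84 and 1.34) and fall on opposite sides of 0 for ACTA2, CNN1, SRF and MRTFA.

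The tested genes whose profile over the 8 libraries was most like that of TAGLN, by the SD of the difference between their log2 values and those of TAGLN, were KITLG (0.64), FST (0.74), ANKRD1 (0.78), SRGN (0.79) and MCAM (0.80). The median of this SD over the 9015 other genes was 1.55. KITLG, which encodes the ligand of the KIT receptor, was 0.57 to 1.12 in the controls and 2.82, 2.79, 2.22 and 1.90 in knockouts 1 to 4, with the same order of knockout pairs as TAGLN. FST, follistatin, was -0.86 to 0.81 in the controls and 2.01, 2.22, 2.64 and 2.56 in knockouts 1 to 4, the opposite order of pairs. ANKRD1, a cardiac ankyrin repeat protein induced by mechanical load, was 3.84 to 4.19 in the controls, 6.48 and 6.49 in knockouts 1 and 2, and 4.27 and 4.35 in knockouts 3 and 4. Its difference of 1.41 ± 0.53 (SE) did not pass the threshold (limma adjusted p = 0.115). ANKRD1 is also among the MRTF-SRF targets described below. MCAM, a cell adhesion molecule of smooth muscle and endothelium, was 1.28 to 1.77 in the controls and 2.40 to 3.25 in the knockouts. Of the other contractile genes the closest to TAGLN was MYL9 (1.27), in place 175 of 9015. TPM1 (1.31) followed in place 292, while ACTA2 (1.94) was in place 8848. The ranking used the TAGLN values by which the list was chosen, so it is a description and supports no claim.

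The wider pathway was described through 5 lists of 87 genes written from general knowledge, of which 84 had a value and 66 were tested. Of these 66, 20 were called, 7 higher and 13 lower, against 13.1% of all tested genes (7.02% higher, 6.10% lower). The median log2 fold change was -0.03, beside 0.01 for all tested genes. Of the 20 called genes, 8 remained called when any 1 library was left out: TAGLN3, PDLIM3, FHL2, CCN2, ITGA5, AMOTL2, JUNB and RHOB. The count was 11, 10 and 9 without control libraries 1, 2 and 4. In those fits the calls over all 9016 genes fell from 1183 to 444, 431 and 391. With each knockout pair averaged the count was 2 (ITGA5 and JUNB), against 1.20% of all genes. TAGLN3, PDLIM3, FHL2, CCN2, AMOTL2 and RHOB were not called there (limma adjusted p 0.0502 to 0.0772). With replicates 1-2 and 3-4 averaged in both groups limma called 0 genes of any kind, with an unadjusted p under 0.05 for 12 of the 66 and for 706 of all 9016.

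The same protein families hold further genes that are expressed outside smooth muscle. Among 13 other actins, transgelins, calponins, tropomyosins and light chains, 10 were tested, none was called higher and 2 fell. Over all tested genes 7.02% were called higher and 6.10% lower. TAGLN3, a transgelin known mainly from neurons, was 2.63, 2.58, 2.62 and 2.75 in controls 1 to 4 and 1.81, 1.88, 2.13 and 2.16 in knockouts 1 to 4, a difference of -0.65 ± 0.09, lower in all 4 knockouts (SE; limma adjusted p = 0.00569). TAGLN3 was lower in the knockouts in which TAGLN was higher. TAGLN2, the broadly expressed transgelin, had a control mean of 7.19 ± 0.07 and a knockout mean of 6.89 ± 0.23 (SD, n = 4 each; limma adjusted p = 0.113). MYL12A, a light chain related to MYL9, fell by 0.40 (limma adjusted p = 0.0410), a call lost with the replicate block (limma adjusted p = 0.0734) and when any control, knockout 3 or knockout 4 was left out (highest adjusted p = 0.116). The cytoplasmic actins ACTB and ACTG1, the tropomyosins TPM3 and TPM4 and the calponin CNN3 did not pass the threshold, with log2 differences of -0.21, 0.15, -0.26, -0.02 and 0.35. The muscle actins ACTA1, ACTC1 and ACTG2 were at or under -1.46 wherever they had a value.

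The remaining smooth muscle contractile genes were mostly weak or absent. Of 16 listed, 2 (KCNMB1 and PPP1R14A) were blank throughout and 7 were tested. The smooth muscle myosin heavy chain MYH11 was blank in 2 libraries and otherwise -7.99 to -6.41, LMOD1 was -7.18 to -5.22, DES was -4.86 to -2.48, and MYOCD, the SRF cofactor that defines smooth muscle, had a value in 2 knockout libraries only, at -7.28 and -8.37. CNN1 was low as well, while SMTN, at percentiles 57.6 to 74.1 of the genes with a value, was not. The label of smooth-muscle-type genes describes what they encode and not the type of these cells. The summed linear level of the 16 genes was 128 to 131 in the controls and 128 to 137 in the knockouts, but most of it came from CSRP1 and PDLIM7, which moved in opposite directions, and not from these defining markers.

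Among the 7 tested genes of that list, CSRP1, a LIM protein of actin filaments, rose by 0.34 ± 0.06 (SE; limma adjusted p = 0.0123; 0.0553 without control 4). PDLIM3, a LIM protein that binds alpha-actinin, fell by 0.62 ± 0.12 (SE; limma adjusted p = 0.0126). PDLIM7, a relative of PDLIM3, fell by 0.31 ± 0.06 (SE; limma adjusted p = 0.0165), a call lost with the replicate block (limma adjusted p = 0.0501) and without control 1, 2 or 4. The related LIM proteins CSRP1, PDLIM3 and PDLIM7 thus did not move in 1 direction. MYLK, the kinase that phosphorylates MYL9, differed by 0.33 ± 0.27 (SE; limma adjusted p = 0.461) and was high only in knockouts 3 and 4, at 2.44 and 2.41 against 1.39 to 1.94 in the controls. SMTN, smoothelin, differed by -0.29 ± 0.22 (SE; limma adjusted p = 0.414).

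Genes widely listed as MRTF-SRF targets went both ways. All 30 were tested, 5 rose, 4 fell and 21 did not pass the threshold, and their median log2 fold change was 0.02. Over all tested genes 7.02% were called higher and 6.10% lower. CCN2, a matricellular protein, was 4.84, 4.85, 5.44 and 5.13 in controls 1 to 4 and 5.88, 5.80, 5.80 and 6.00 in knockouts 1 to 4, a rise in all 4 knockouts of 0.81 ± 0.14 (SE; limma adjusted p = 0.00913). AMOTL2, an angiomotin of cell junctions, rose by 0.43 ± 0.06 (SE; limma adjusted p = 0.00537), from 3.27 to 3.40 across controls to 3.73 to 3.81 across knockouts. FILIP1L rose by 0.65 ± 0.13 (SE; limma adjusted p = 0.0163; 0.0572 without control 2). With knockout pairs averaged none of the 5 risers was called (limma adjusted p = 0.0772 for CCN2, 0.0691 for AMOTL2 and 0.117 for FILIP1L). The other 2 risers were also less stable when a library was left out. ENAH, an actin-elongation factor, rose by 0.39 (limma adjusted p = 0.0414), a call that 7 of the 8 fits with a library left out did not keep (only that without knockout 4 did). CORO1C was the fifth gene to rise, by 0.26 (limma adjusted p = 0.0299; 0.0646 with the replicate block), and was not called without control 1, 2 or 4 or knockout 2, 3 or 4.

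The targets that fell included both chains of the fibronectin receptor. ITGA5, its alpha chain, was 5.21, 5.16, 5.29 and 5.20 in controls 1 to 4 and 4.40, 4.51, 4.70 and 4.69 in knockouts 1 to 4, a fall of 0.64 ± 0.08 (SE; limma adjusted p = 0.00409) that was also called with knockout pairs averaged (limma adjusted p = 0.0387). ITGB1, the beta chain, fell by 0.34 ± 0.07 (SE; limma adjusted p = 0.0171; not called without control 1, 2 or 4, highest adjusted p = 0.0686). FHL2, a LIM-domain cofactor that can bind SRF, fell by 0.46 ± 0.08 (SE; limma adjusted p = 0.00969), and all 4 knockouts were below all controls. CAPZA1, an actin capping subunit, fell by 0.28 (limma adjusted p = 0.0354; 0.0888 with the replicate block) and was called only without control 3 or without knockout 3. Vinculin (VCL), zyxin (ZYX), filamin A (FLNA) and talin (TLN1), which are structural parts of adhesions, had differences of -0.01, 0.01, -0.09 and 0.02, none past the threshold. For VCL and TLN1 the mean hides differences of opposite sign, -0.28 and -0.40 within replicates 1-2 and 0.26 and 0.44 within replicates 3-4.

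**Figure D3:**
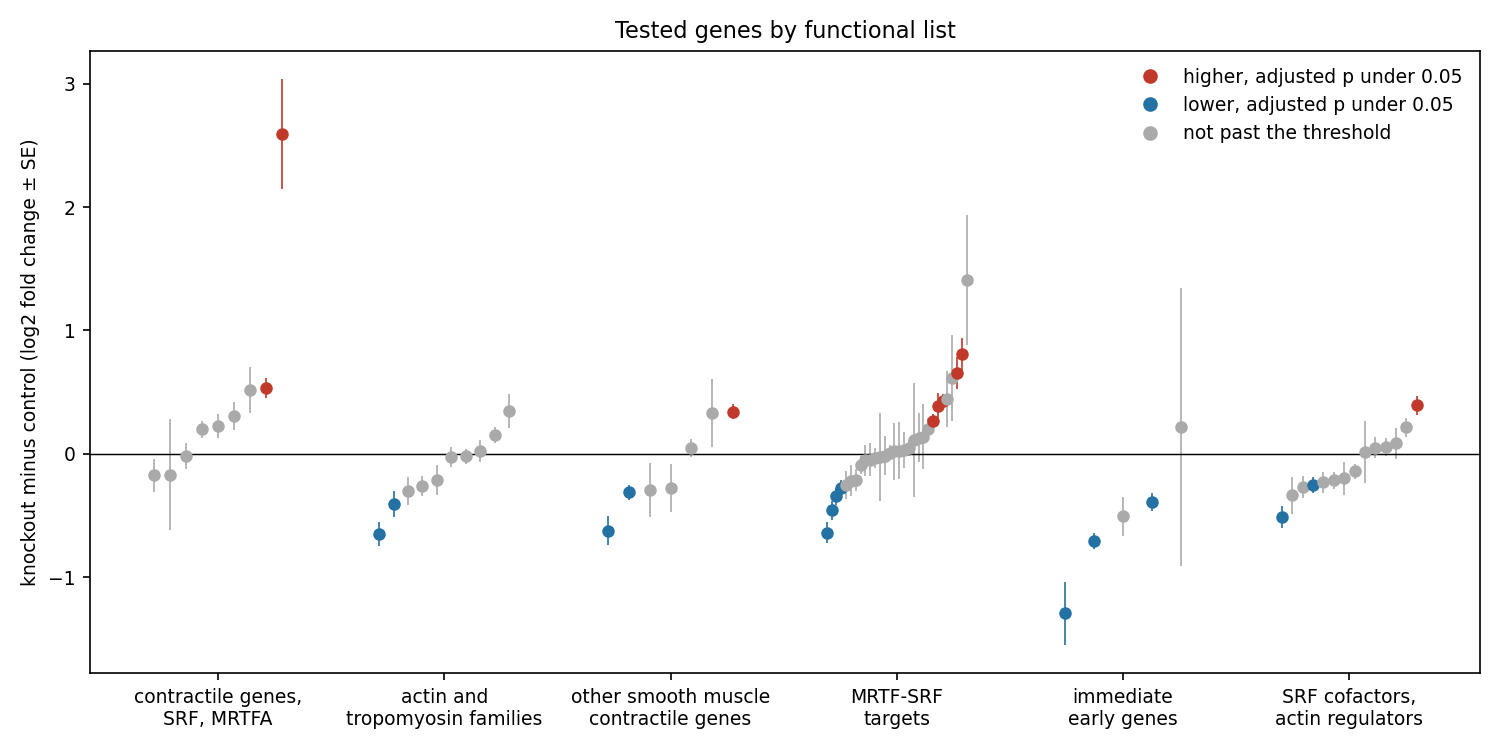
Log2 fold change, knockout minus control, with its SE (vertical axis) for each tested gene of 6 lists, sorted within a list; red is called higher, blue called lower and grey not past an adjusted p-value of 0.05 in the limma fit. TAGLN (2.59) lies far above the other genes of its list, the MRTF-SRF targets spread to both sides of 0, and no immediate early gene is called higher.

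Immediate early genes, which SRF drives with ternary complex factors, were lower where they passed the test. Of 10 listed, 5 were tested and 3 fell, against 6.10% of all tested genes called lower. EGR1, a zinc finger factor induced by growth signals, was 2.91, 2.72, 2.46 and 2.64 in controls 1 to 4 and 0.76, 1.07, 1.75 and 1.98 in knockouts 1 to 4. All 4 knockouts were below all controls, a fall of 1.29 ± 0.25 on the log2 scale (SE; limma adjusted p = 0.0155; not called without control 1, 2 or 4, highest adjusted p = 0.0553), and the difference was -1.90 within replicates 1-2 and -0.69 within replicates 3-4. JUNB, an AP-1 subunit, was 4.35, 4.40, 4.21 and 4.39 in the controls and 3.62, 3.63, 3.61 and 3.66 in the knockouts. That fall of 0.71 ± 0.06 (SE; limma adjusted p = 0.00117) was alike within replicates 1-2 (-0.75) and 3-4 (-0.67), and it was still called with knockout pairs averaged (limma adjusted p = 0.0270). MCL1, a survival protein of the BCL2 family, fell by 0.39 ± 0.07 (SE, limma adjusted p = 0.0126, and 0.0515 without control 4). EGR1 and MCL1 were not called with knockout pairs averaged (limma adjusted p = 0.0642 and 0.0841).

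Other genes of that list did not all follow. IER2 was lower in all 4 knockouts, 5.14, 5.18, 5.74 and 5.79 against 5.93 to 6.00 in the controls, but did not pass the threshold (limma adjusted p = 0.0655). FOS was 2.15, 2.29, 5.17 and 3.97 in controls 1 to 4 and 1.28, 2.01, 5.60 and 5.55 in knockouts 1 to 4, so that it separated replicates 1-2 from replicates 3-4 in both groups and not knockout from control (limma adjusted p = 0.920). FOSB followed the same split. EGR2 and EGR4 were below the filter on low values; named after their values were seen, they differed by -2.29 ± 0.50 and -1.22 ± 0.22 (SE) in the limma fit without that filter (adjusted p = 0.0334 and 0.0194, where 8.30% of 13943 genes were called), and for both all knockouts were below all controls. EGR3 differed by -1.16 ± 0.57 (SE; adjusted p = 0.239 in the same fit) and NR4A1 by 0.24 ± 0.08 (SE; adjusted p = 0.0867). For NR4A1 all knockouts were above all controls, the opposite direction to EGR2 and EGR4.

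**Figure D4:**
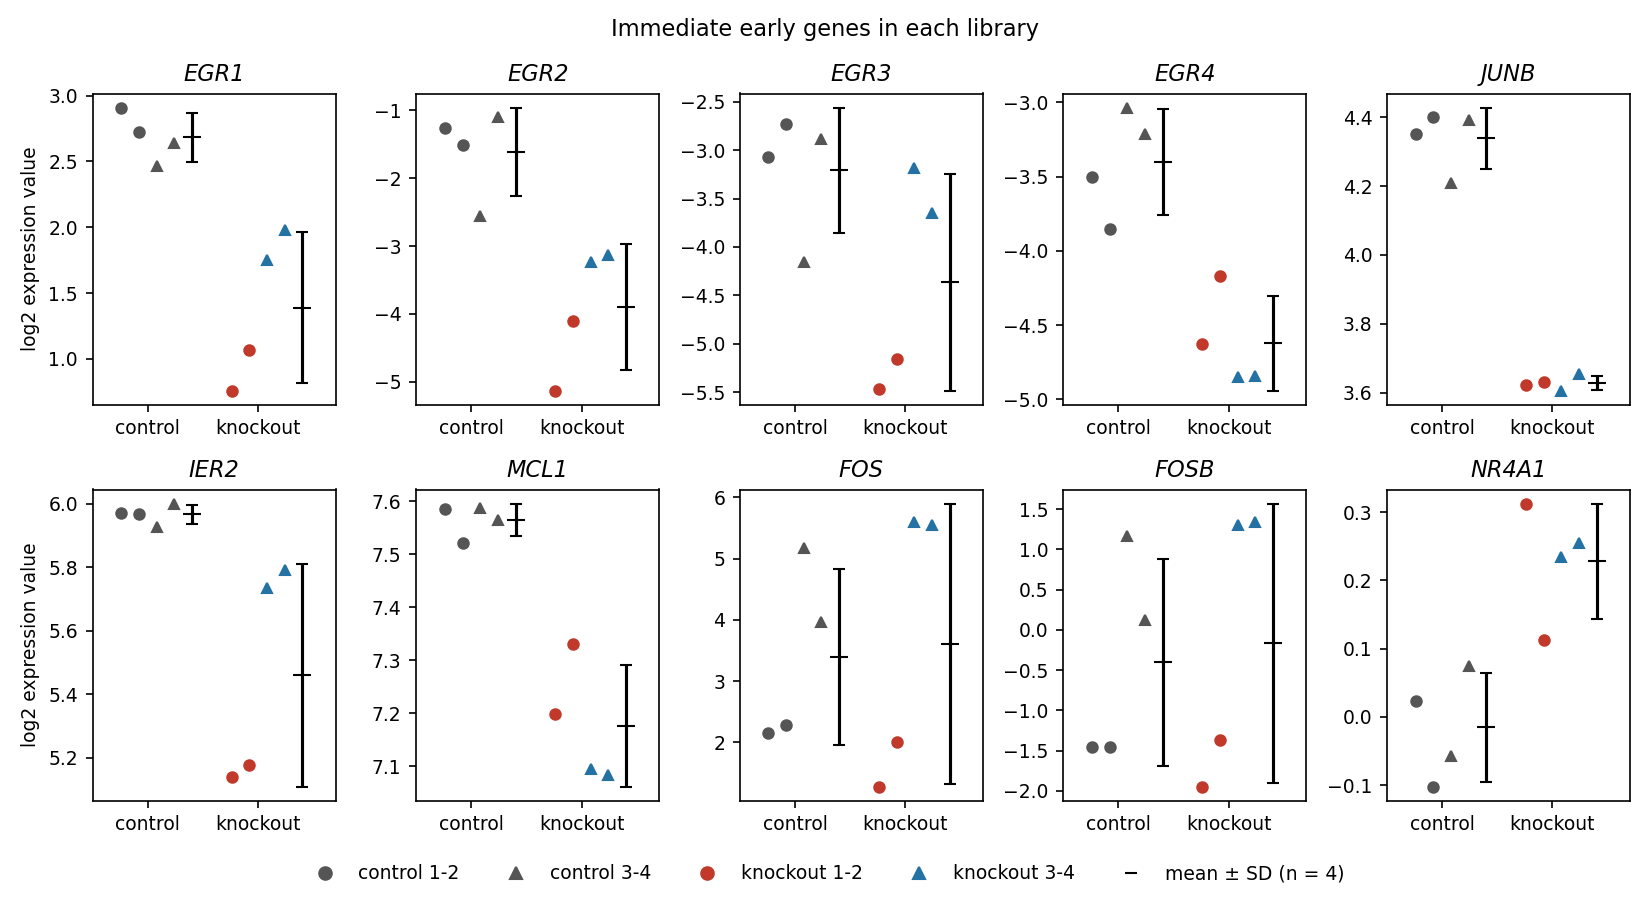
Deposited log2 expression value (vertical axis, a separate scale for each gene) of 10 immediate early genes in each control and knockout library, with the mean ± SD of 4 libraries; circles are replicates 1-2 and triangles replicates 3-4. JUNB forms a tight group near 3.63 in the knockouts, and EGR1, EGR2 and EGR4 are below all controls in every knockout. NR4A1 is above all controls in every knockout, and FOS and FOSB follow the replicate sets in both groups.

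Upstream of SRF, 14 of 18 listed cofactors and actin regulators were tested, 1 rose and 2 fell. Over all tested genes 7.02% were called higher and 6.10% lower. LIMK2, a kinase that inactivates cofilin and so favours polymerised actin, was 1.17 to 1.34 in the controls and 1.55, 1.51, 1.64 and 1.74 in knockouts 1 to 4, a rise of 0.39 ± 0.08 (SE; limma adjusted p = 0.0140; not called without control 1, 2 or 4, highest adjusted p = 0.0592). RHOB, a small GTPase of endosomes and itself an early response gene, was 5.58 to 5.64 in the controls and 5.19, 5.28, 5.02 and 4.88 in the knockouts, a fall of 0.51 ± 0.09 (SE; limma adjusted p = 0.0104). These genes stand at different steps: LIMK2 is a kinase and RHOB a GTPase. ELK1, a ternary complex factor, fell by 0.25 (limma adjusted p = 0.0425), a call kept in none of the 8 fits with a library left out (adjusted p 0.0573 to 0.122) and lost with the replicate block (0.0879). RHOA, ROCK1, ROCK2 and DIAPH1, which promote actin assembly and contraction, had log2 differences of -0.14, -0.21, 0.05 and 0.08 and did not pass the threshold. DIAPH3, a relative of DIAPH1 below the filter and named after its values were seen, was higher in all 4 knockouts than in any control, by 0.51 ± 0.11 (SE; adjusted p = 0.0324 in the limma fit without that filter). MRTFB, the other widely expressed MRTF, was below the filter, with means of -0.24 ± 0.12 and -0.23 ± 0.27 (SD, n = 4 each).

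Markers of other cell types were read in the same libraries. Of 6 skeletal muscle markers 4 (MYOD1, MYOG, MYF5 and CKM) were blank throughout, and the summed linear level of the list was 0.70 to 0.99 in the controls and 1.11 to 1.40 in the knockouts, most of it MYH3. Among 5 leukocyte markers PTPRC and CD3E were blank, and the summed level was 52.8 to 59.9 and 46.5 to 58.8, almost all from CD68. All 5 endothelial markers had a value, with summed levels of 31.8 to 36.6 and 24.4 to 26.3, nearly all from TIE1, while PECAM1 was -4.61 to -3.30 and VWF -6.79 to -5.45. Of 8 osteoblast markers SP7 and IBSP were blank, RUNX2 was 0.05 to 0.43, and the summed level was 11.2 to 29.1 and 15.7 to 28.9. Most of that level came from SPP1, at 3.08 to 4.70. ALPL was -1.75 to -0.34, and COL1A2 had a value in 2 controls and 2 knockouts only, at -7.55 to -4.82. The skeletal muscle and endothelial sums did not overlap between the groups. The same held, in either direction, for the values of 22.9% of all tested genes. The lower endothelial sum in the knockouts came nearly all from TIE1. KDR, VWF and CDH5 had higher means in the knockouts, by 0.64, 0.50 and 0.91 (CDH5 with 2 control values only). PECAM1 differed by -0.32. The KDR mean describes neither knockout pair, since KDR differed by 3.24 within replicates 1-2 and by -1.97 within replicates 3-4. KDR, VWF and PECAM1 were not called in the limma fit without the filter on low values (adjusted p = 0.739, 0.406 and 0.561). MYH3 was called higher in that fit, by 0.55 ± 0.12 (SE, adjusted p = 0.0367), where 8.30% of genes were called. TIE1 passed the filter and was called lower, by 0.45 ± 0.07 (SE, limma adjusted p = 0.00762, and 0.0764 with knockout pairs averaged). CD68 and SPP1, the other tested markers, were not called (limma adjusted p = 0.305 and 0.477). The skeletal muscle and endothelial sums, each mostly from 1 gene, moved with the groups, and not every marker in them did. The part of the markers in the contractile gene values was not tested.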

How the data were processed

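RNA of 4 NELL1 knockout and 4 vector control libraries was made with TRIzol and a stranded total-RNA kit, per the labels' protocols. The submitters' processing notes name GRCh38, bcl2fastq and Partek 7.0; the aligner, counting, annotation and strand setting are not given in the sources used here. The authors deposited 1 log2 value per symbol and library, quantile normalized (every library has the same median of 1.77), which hides a shift of all genes. Base 2 was inferred from the range, blank cells were treated as missing, and without counts the depth is unknown, so precision rests on the spread between libraries.

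Groups and replicate numbers came from sample titles. limma 3.58.1 in R 4.3.3 was fitted (no trend, no covariate) to 9016 genes with 8 values and a mean of at least 1. Benjamini-Hochberg adjustment was over all of them. The fit was tested on simulated data with independent noise in each library. That simulation left out the deviations shared by the libraries of a pair, so it does not show how the fit behaves with them. Named genes are the 10 genes, called genes of 5 wider lists (at most 4 per direction and list by size), the 5 genes most like TAGLN and its neighbours; others were named after their values were seen. Genes and lists were chosen with earlier results of these data known. Deviations of same-numbered libraries from their group means correlated at 0.20 to 0.29 across genes in all 4 pairs. Differently numbered libraries within replicates 1-2 or within 3-4 correlated at 0.11 to 0.31, so the shared deviation follows these sets rather than single numbers; the labels state no pairing, and the replicate block is given beside the results it changes. Alternatives were other filters, scalings, a pseudocount of 1, a variance trend, a replicate block, a batch term, averaged or left-out libraries and stricter thresholds. Gene spans and promoters came from RefSeq, GRCh38.p14, and strands from GENCODE 29.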

Additional observations from a re-analysis of the deposited data

Results flagged for a closer look

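Over the 10 contractile and regulator genes and 19 other named genes, 58 groups of 4 libraries were checked for a library far from the other 3. About 1 in 20 would be marked by chance if the 4 values of a group were independent. The knockout libraries stand in close pairs, so that rate need not hold for the knockout groups. In 1 group this was so: LIMK2 was 1.34 in control 3, against 1.17 to 1.18 in the other controls, a gap of 0.91 of the range of the group. The level of LIMK2 in control 3 was still below all 4 knockouts (1.51 to 1.74).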

How the results depend on the processing

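The number of contractile and regulator genes called (2 of 9) was 1 with a mean of at least 3 (4 genes tested, TAGLN not among them) and 1 at an adjusted p under 0.01. It was 5 with a batch term for replicates 1-2 against 3-4 (where 25.2% of all genes were called), 0 with knockout pairs averaged (1.20%), 0 with pairs averaged in both groups (0 genes), 9 in replicates 1-2 alone (59.7%), where ACTA2 and MRTFA were lower, and 3 in replicates 3-4 alone (33.1%): TAGLN, TPM1 and ACTA2, the last higher there. It was 2 to 3 when 1 library was left out. The number called in the wider lists (20 of 66) was 13 with a mean of at least 3, 6 at an adjusted p under 0.01, 2 with knockout pairs averaged, 0 with pairs averaged in both groups, 52 for replicates 1-2 by themselves, and 26 both for replicates 3-4 and when the batch term was fitted. It was 9 to 19 when 1 library was left out. The fits with averaged or left-out libraries have fewer samples; beyond that the cause was not tested. TAGLN, TPM1 and the 19 other named genes kept their sign in every alternative that tested them. With the replicate block the wider count was 15, all among the 20, with MYL12A, PDLIM7, CAPZA1, CORO1C and ELK1 lost; MYL9 was gained, and the block changed no other call of the 10 genes. A variance trend, a pseudocount of 1 and either rescaling (by the median or by quantiles) left both counts at 2 and 20. Without counts, depth sets no limit that could be stated; low genes such as CNN1, EGR2 and EGR4 rest on the spread between libraries alone.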
